A study of Homo sapiens with 5 samples.

Results

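The genes described here encode the enzymes of the citrate cycle, the machinery that brings pyruvate into it, and the enzymes that exchange its intermediates with glutamate, aspartate, malate and phosphoenolpyruvate. They were chosen by name, with earlier results of these data known, as 40 gene symbols matched to the Ensembl identifiers of the count table. All 40 were among the 16677 genes of the table, and all 40 were among the 16310 genes that passed the filter on low counts. Messenger RNA had been sequenced from 5 libraries of HEK293 cells, a line long established from human embryonic kidney and here grown under basal conditions. The 2 control libraries were labelled WT (here wild-type 1 and wild-type 2). The other 3 carried rs11607019, a T-to-C change that the series places in SIRT3, which encodes a sirtuin that removes acetyl groups from proteins of the mitochondrial matrix (here variant 1, variant 2 and variant 3). No other allele or agent is named for either group. The labels do not say if separate clones or repeated cultures gave the libraries, so p-values measure only the spread between these libraries, which may be technical.

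Pyruvate made by glycolysis crosses the inner mitochondrial membrane through the mitochondrial pyruvate carrier and is turned into acetyl-CoA by the pyruvate dehydrogenase complex. Acetyl-CoA joins oxaloacetate to form citrate, and the cycle then releases carbon dioxide and passes electrons to NAD and, at succinate dehydrogenase, to the respiratory chain. Several of these enzymes, among them IDH2, SDHA, GLUD1 and subunits of pyruvate dehydrogenase, are described as deacetylated by SIRT3. That action is on the proteins, and protein levels and acetylation were not analysed here.

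Levels are TMM-normalised CPM, a gene's count relative to the total of its library, after scaling for library composition, and the 5 values of a gene are always given in the order wild-type 1, wild-type 2, then variant 1, variant 2 and variant 3. Library totals ran from 17122569 to 17596084 counts, and the 40 genes held between 112 and 10330 counts in a library. Of the markers fixed for HEK293, KRT8, KRT18, VIM and PAX2 were in the table, with a summed level of 620 to 887 CPM in wild type and 735 to 1105 CPM in the variant. NEFL and NEFM, also fixed as HEK293 markers, were not in the table. Of 6 fibroblast markers 2 were in the table, COL1A1 and COL3A1, at a summed 30.7 to 48.2 CPM in wild type and 30.6 to 47.6 CPM in the variant. No blood or liver cell marker of the lists was in the table. By their counts over all genes, the closest of the 10 library pairs was wild-type 2 with variant 3, which carry different labels (chi-square per degree of freedom 17.3, against 24.3 to 34.4 within a group). SIRT3 itself overlapped between the groups, at 28.8, 29.3, 26.5, 15.8 and 30.2 CPM. In bulk RNA, fewer cells of a kind and less RNA per cell cannot be told apart.

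No gene of the 40 passed the threshold. In the quasi-likelihood test of edgeR 0 of 40 had an adjusted p under 0.05, as did 0% of all tested genes, and adjusted values ran from 0.616 to 0.982. DESeq2's Wald test also gave 0 of 40 and called 0.213% of the 15045 genes it adjusted. At an unadjusted p under 0.05, edgeR left 7 genes, all lower in the variant. They were SDHD, MDH1, SDHB, MPC2, PDK1, PDHB and DLD. These 7 are 17.5% of the 40, where 3.51% of all tested genes were lower at that p. None of the 40 was higher at that p, where the share over all tested genes was 4.11%. The groups did not overlap at 11 genes that were lower in the variant (27.5%, against 13.0% of all tested genes). They did not overlap either at 4 that were higher (10%, against 11.8%). As the 40 genes were chosen with earlier results of these data known, these shares describe the list and are no independent support. The median log2 fold change of the 40 genes was −0.09, with 25 lower and 15 higher, and that of all tested genes was 0.00299. DESeq2 had 6 lower members at an unadjusted p under 0.05 (against 3.28% of all tested genes), and edgeR with the replicate number as a block also had 6 (against 4.10%).

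The number at an unadjusted p under 0.05 moved with the libraries used. Without wild-type 1 the count of lower genes at that p was 0 of 40, where the share over all tested genes was 1.19%, and the lone wild-type library was then assumed to vary like the variant libraries. The median log2 fold change of the 40 genes was then −0.13 and kept its sign. Values of single genes did not all do so, as IDH3B, IDH3G, SDHA, PDK3, GOT2 and MPC1 changed sign. Without variant 2 the count was 4, and the share over all tested genes was not computed for that fit. Once each library was corrected for the GC content and length of transcripts, the count was 3 (SDHD, MDH1 and SDHB), or 7.5%, where 2.50% of all tested genes were lower. That correction is described with the GC content of the genes.

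On GRCh38, in the GENCODE release 29 annotation, SDHD (ENSG00000204370) spans 112086773 to 112120013 of chromosome 11 on the forward strand and MDH1 (ENSG00000014641) 63588609 to 63607197 of chromosome 2 on the forward strand. SDHB (ENSG00000117118) spans 17018722 to 17054170 and MPC2 (ENSG00000143158) 167916729 to 167937040 of chromosome 1, both on the reverse strand. PDK1 (ENSG00000152256) spans 172555373 to 172608669 of chromosome 2, forward, PDHB (ENSG00000168291) 58427630 to 58433857 of chromosome 3, reverse, and DLD (ENSG00000091140) 107890970 to 107931730 of chromosome 7, forward. Counts are of whole genes, so no exon or transcript form can be read from them.

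**Figure D1:**
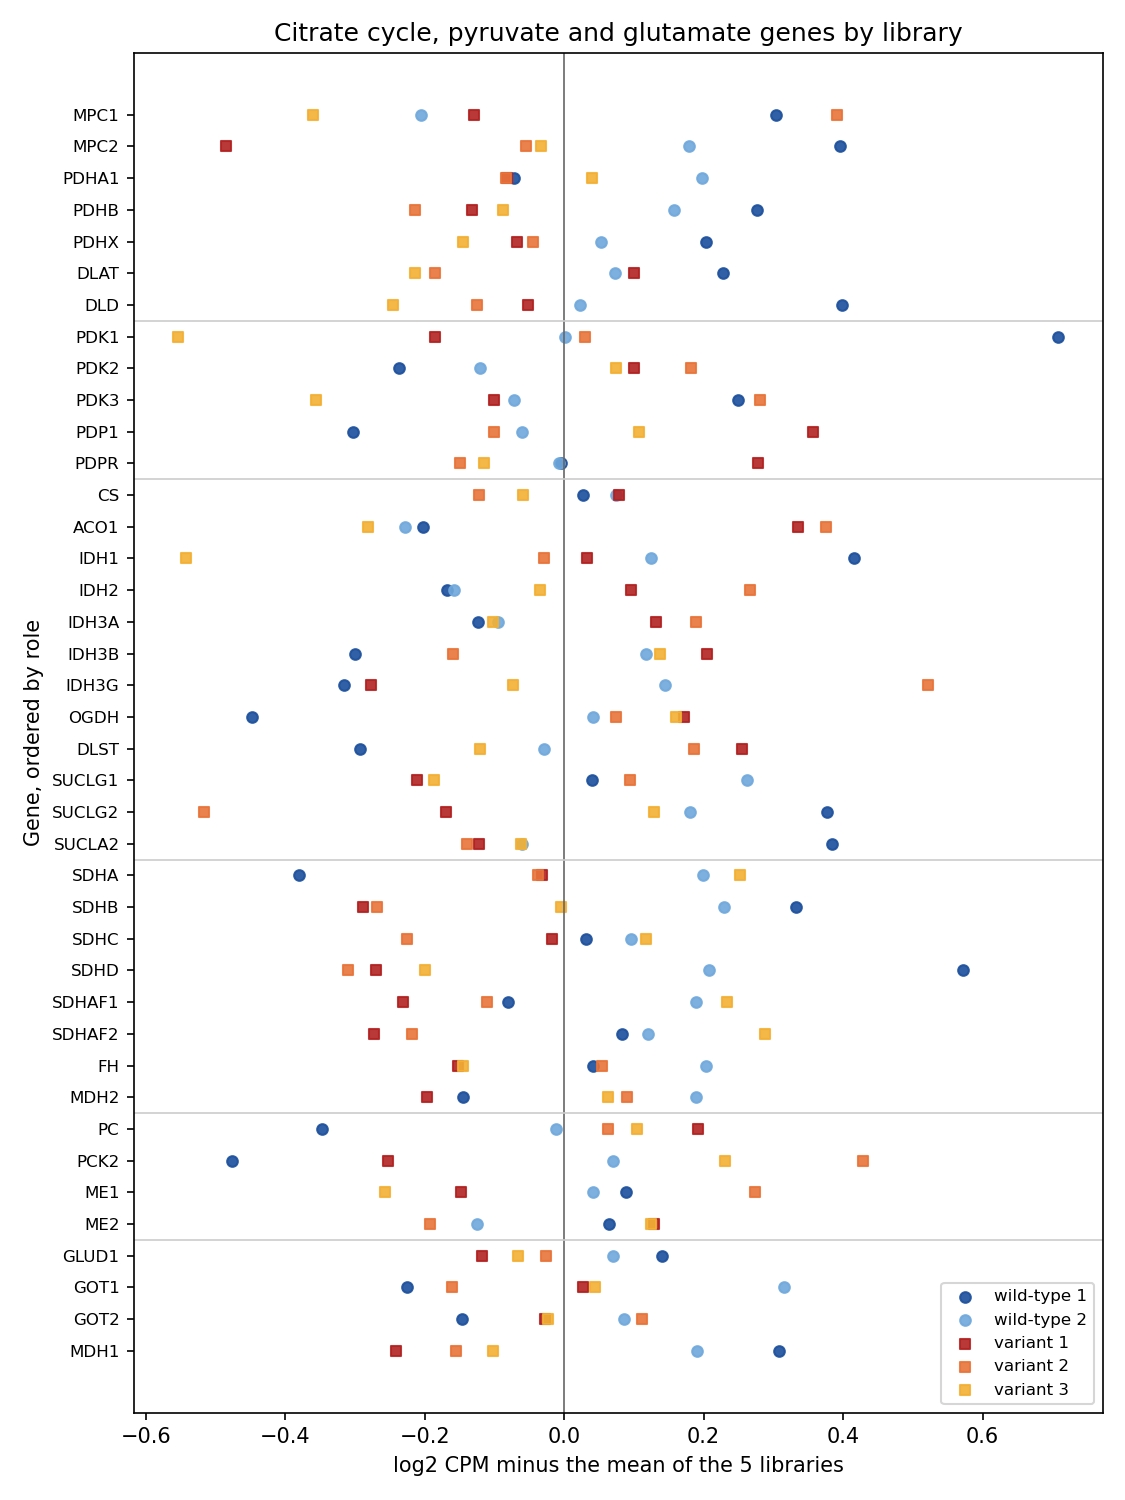
Each row is 1 of the 40 genes, in blocks from top to bottom of pyruvate entry, pyruvate dehydrogenase regulators, citrate to succinate, succinate to oxaloacetate, anaplerosis and malate use, and glutamate with the malate-aspartate shuttle. Points show the log2 CPM of each library minus the mean of the 5 libraries, circles for the 2 wild-type and squares for the 3 variant libraries. Both circles lie to the right of all squares at 11 genes and to the left at 4.

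All 7 pyruvate entry genes had negative log2 fold changes, with a median of −0.24. The carrier is made of MPC1 and MPC2, which work as a pair. MPC2 stood at 77.9, 67.0, 42.3, 57.0 and 57.8 CPM. Both wild-type libraries lay above the variant ones, and variant 1 was the lowest. MPC2 had a log2 fold change of −0.47 (SE 0.19, 95% confidence interval −0.89 to −0.05; edgeR adjusted p = 0.627). Its partner MPC1 stood at 53.4, 37.5, 39.6, 56.8 and 33.7 CPM. Here the highest libraries were wild-type 1 and variant 2, and the log2 fold change was −0.07 (95% confidence interval −0.63 to 0.49).

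In the pyruvate dehydrogenase complex, PDHA1 and PDHB encode the subunits of the E1 component that takes carbon dioxide from pyruvate. DLAT encodes the E2 component that carries the acetyl group, DLD the E3 component that restores the lipoyl arm, and PDHX the protein that holds E3 in the complex. PDHB stood at 78.3, 72.1, 59.0, 55.7 and 60.8 CPM, or 75.2 ± 4.38 CPM in wild type (SD, n = 2) and 58.5 ± 2.58 CPM in the variant (SD, n = 3). All 3 variant libraries were below both wild-type libraries, with a log2 fold change of −0.36 (SE 0.15). DLD stood at 217, 167, 159, 151 and 139 CPM. There was no overlap, but wild-type 1 stood well above the rest, and the log2 fold change went from −0.36 (SE 0.16) to −0.16 without that library.

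PDHX stood at 43.3, 39.0, 35.9, 36.4 and 33.996 CPM. Its groups did not overlap either, with a log2 fold change of −0.22 (SE 0.16), or −0.14 without wild-type 1. DLAT overlapped only through variant 1, which at 87.4 CPM lay between wild-type 1 (95.5 CPM) and wild-type 2 (85.8 CPM). Variant 2 and variant 3 held 71.7 and 70.3 CPM of DLAT. PDHA1 was within 160 to 194 CPM in all libraries and had a log2 fold change of −0.11 (SE 0.15). The difference between the 2 subunits of E1 was not tested. Adjusted p-values of the 5 subunit genes ran from 0.638 to 0.870 in edgeR.

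The promoters of the E1 subunits are shown because the 2 genes encode partners of 1 enzyme. The groups did not overlap at PDHB and overlapped at PDHA1, a difference that was not tested. The stretches, from the RefSeq promoter table on GRCh38.p14, lie before the start of each gene and outside GENCODE basic transcripts. PDHA1 is at chrX:19343677-19343892 on the forward strand and PDHB at chr3:58433858-58434082 on the reverse strand. Capitals mark matches to GGGCGG (the SP1 box), CCAAT and CACGTG (the E-box) on either strand.
PDHA1: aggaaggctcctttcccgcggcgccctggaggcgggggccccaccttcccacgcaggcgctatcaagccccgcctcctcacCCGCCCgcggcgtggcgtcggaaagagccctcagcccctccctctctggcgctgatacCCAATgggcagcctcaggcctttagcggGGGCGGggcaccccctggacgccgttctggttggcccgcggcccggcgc
PDHB: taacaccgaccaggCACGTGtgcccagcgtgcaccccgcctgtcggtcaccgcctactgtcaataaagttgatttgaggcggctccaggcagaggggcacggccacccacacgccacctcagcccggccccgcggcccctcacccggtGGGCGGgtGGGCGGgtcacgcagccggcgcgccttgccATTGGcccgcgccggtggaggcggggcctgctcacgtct
Both stretches held 2 SP1 boxes and 1 CCAAT box, and PDHB also held 1 E-box. Over the 250 bases before each RefSeq start, the SP1 box was in 67.3% of the 49 windows of the 37 genes with an entry, and in 42.6% of all 35116 windows of the table. CCAAT was in 42.9% and 32.0%, and the E-box in 6.12% and 6.34%. A match is a match of letters only.

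The regulators of pyruvate dehydrogenase had log2 fold changes of both signs. PDK1, PDK2 and PDK3 encode kinases that switch the complex off, PDP1 encodes the catalytic subunit of the phosphatase that switches it on, and PDPR encodes the regulatory subunit of that phosphatase. PDK1 stood at 49.2, 30.1, 26.5, 30.7 and 20.5 CPM. Variant 2 lay above wild-type 2, so the groups overlapped, and the highest library was 2.40 times the lowest. No other of the 40 genes had a larger ratio. PDK1 had a log2 fold change of −0.61 (SE 0.25, 95% confidence interval −1.18 to −0.05). Without wild-type 1 it was −0.22 and without wild-type 2 it was −0.93.

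PDK2 was the only regulator with groups that did not overlap, at 34.9 and 37.8 CPM in wild type and 44.1, 46.7 and 43.3 CPM in the variant. Its log2 fold change was 0.30 (SE 0.16; edgeR adjusted p = 0.687). PDK3 ran from 50.9 to 79.2 CPM, with variant libraries at both ends. PDP1, with the lowest level of the 40 genes per kilobase of transcript (2.47 CPM per kilobase), stood at 8.63, 10.2, 13.6, 9.93 and 11.5 CPM, and variant 2 lay between the wild-type libraries. PDPR stood at 69.5 and 69.4 CPM in wild type and 84.6, 62.9 and 64.4 CPM in the variant, with 1 library above and 2 below. PDK3, PDP1 and PDPR had log2 fold changes of −0.13 (SE 0.21), 0.31 (SE 0.24) and 0.02 (SE 0.18).

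**Figure D2:**
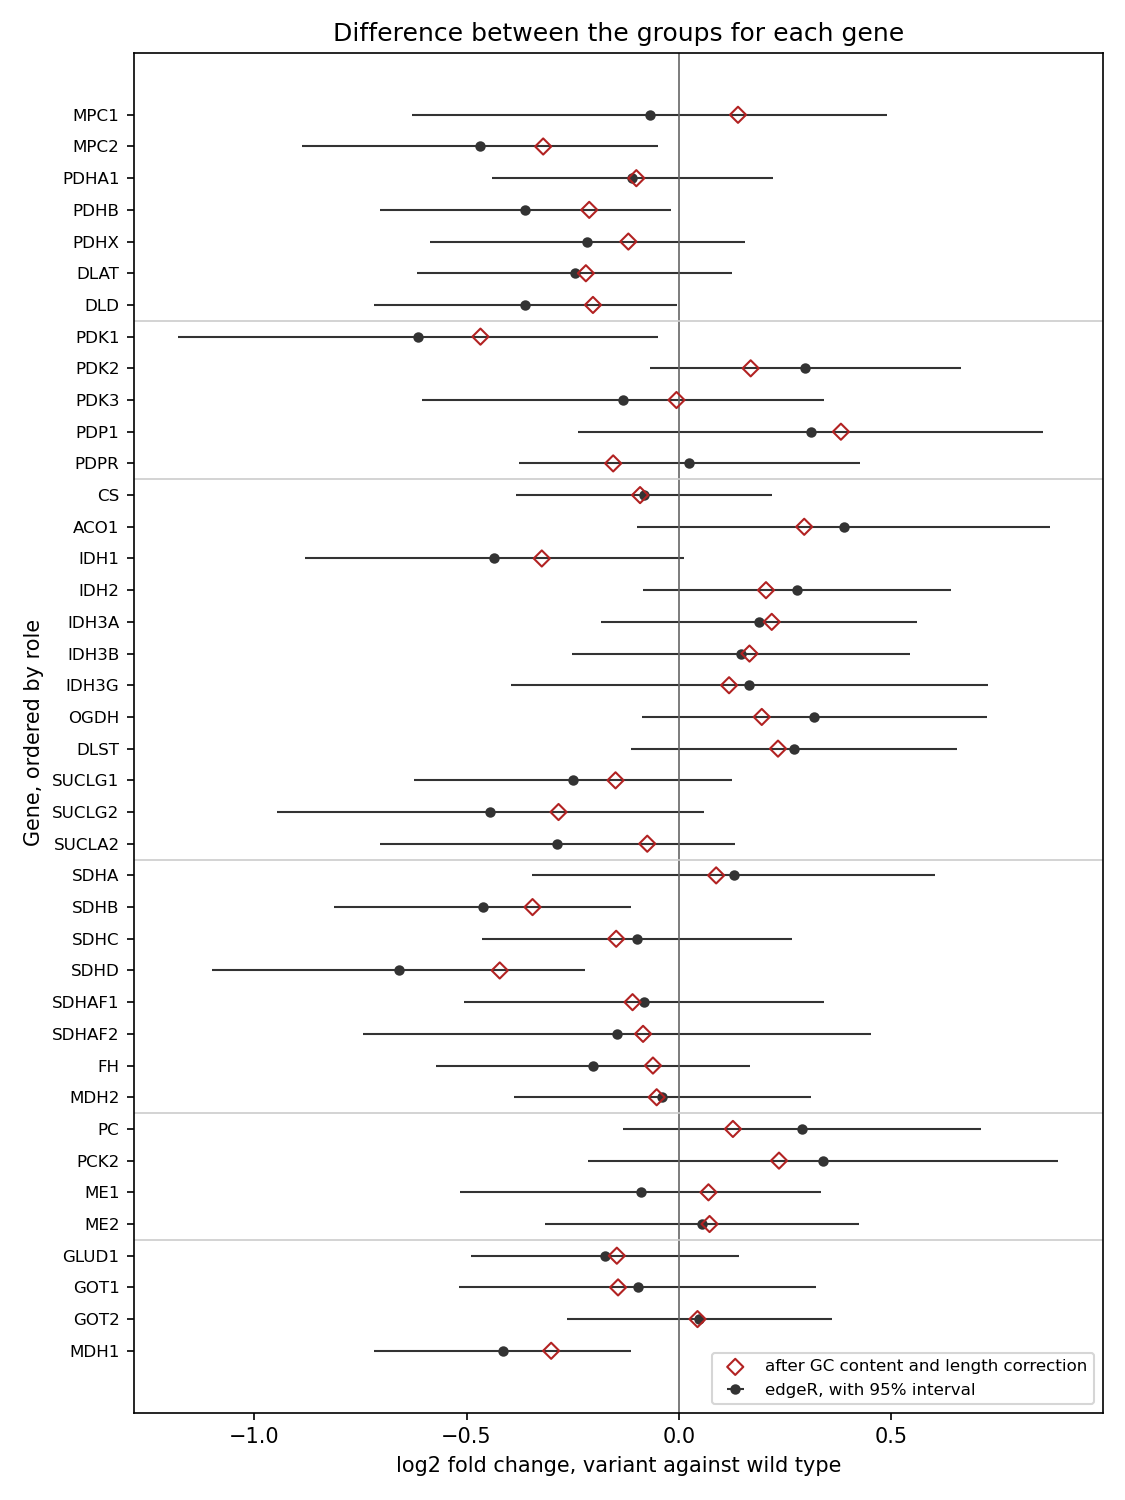
Filled points show the log2 fold change (variant over wild type) for each of the 40 genes, with its 95% confidence interval, in the order of the plot by library. Open diamonds show the value once GC content and length are corrected for. All 7 pyruvate entry genes lie left of 0 before the correction, and MPC1 lies right of it after.

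From citrate to succinate, 7 of 12 genes had positive and 5 negative log2 fold changes (median 0.16), and 0 had an unadjusted p under 0.05. CS encodes citrate synthase, which opens the cycle. It stood at 319, 329.8, 331, 288 and 301 CPM, with variant 1 level with wild type, and its log2 fold change was −0.08 (SE 0.13). ACO1 encodes the cytosolic aconitase, which also serves as an iron sensor. It stood at 45.0, 44.2, 65.3, 67.2 and 42.6 CPM. Variant 1 and variant 2 were higher than wild type and variant 3 was not, with a log2 fold change of 0.39 (SE 0.22) that was 0.57 without variant 3. ACO1 lies on chromosome 9, whose 662 tested genes had a median log2 fold change of 0.35. On the log2 scale, their medians against the average of the 5 libraries were −0.07 (variant 1), 0.28 (variant 2) and 0.18 (variant 3). ACO1 was also highest in variant 2, but its lowest variant library was variant 3. The part of this chromosome-wide shift in the value of ACO1 was not tested.

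Of the NADP-dependent isocitrate dehydrogenases, IDH1, the cytosolic form, stood at 139, 114, 107, 102 and 71.6 CPM. Every variant library was below both wild-type ones, and variant 3 was far below variant 1 and variant 2. Its log2 fold change was −0.43 (SE 0.20, 95% confidence interval −0.88 to 0.01), with −0.28 when wild-type 1 and −0.28 when variant 3 was left out. IDH2, the mitochondrial form, stood at 64.4, 64.8, 77.3, 87.1 and 70.6 CPM. All variant libraries were above both wild-type libraries, with a log2 fold change of 0.28 (SE 0.16). In edgeR the adjusted p was 0.657 for IDH1 and 0.700 for IDH2.

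IDH3A, IDH3B and IDH3G encode the 3 subunits of the NAD-dependent enzyme of the cycle itself. Their log2 fold changes were 0.19 (SE 0.17), 0.15 (SE 0.18) and 0.17 (SE 0.25), all with overlapping groups. IDH3A stood at 49.4, 50.3, 58.9, 61.4 and 50.1 CPM, so that only variant 3 lay within the wild-type range. IDH3G had its highest value, 104 CPM, in variant 2, against 58.1 to 79.9 CPM in the other libraries. Without wild-type 1 the log2 fold changes of IDH3B and IDH3G were −0.05 and −0.05, and that of IDH3G was −0.10 without variant 2. IDH3G overlaps SSR4, a gene of the other strand with 3156 counts per library on average.

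The 2-oxoglutarate dehydrogenase complex has OGDH as its E1 component, DLST as its E2 component and DLD, shared with pyruvate dehydrogenase, as E3. OGDH stood at 55.9, 78.5, 86.0, 80.4 and 85.3 CPM. Again there was no overlap, but wild-type 2 and variant 2 were close and wild-type 1 was the low library. OGDH had a log2 fold change of 0.32 (SE 0.18), and 0.09 without wild-type 1. DLST stood at 102, 122, 149, 142 and 115 CPM, with variant 3 inside the wild-type range and a log2 fold change of 0.27 (SE 0.17). DLST is on chromosome 14, where the median deviation of 541 tested genes from the 5-library mean was 0.275 in variant 1, 0.278 in variant 2 and −0.218 in variant 3. Its part in the value of DLST was not tested.

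Succinyl-CoA synthetase joins an alpha subunit, SUCLG1, with a beta subunit that sets its nucleotide, SUCLG2 for GDP and SUCLA2 for ADP. The log2 fold changes of the 3 genes were −0.25 (SE 0.17), −0.44 (SE 0.22) and −0.29 (SE 0.19), with edgeR adjusted p from 0.667 to 0.728. SUCLG2 stood at 28.03, 24.5, 19.2, 15.1 and 23.6 CPM. Wild type was higher throughout, by a small margin between wild-type 2 and variant 3, and the log2 fold change was −0.29 without variant 2. SUCLA2 stood at 48.3, 35.5, 33.98, 33.6 and 35.4 CPM, where wild-type 1 alone stood apart. Without wild-type 1 its log2 fold change was −0.05. SUCLG1 overlapped, because variant 2 at 94.1 CPM lay between 90.6 CPM in wild-type 1 and 106 CPM in wild-type 2.

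From succinate to oxaloacetate, 7 of 8 genes had negative log2 fold changes (median −0.12). This role was chosen with earlier results of these data known. Of its genes, 2 were lower at an unadjusted p under 0.05 in edgeR (25%, against 3.51% of all tested genes). Both encode subunits of succinate dehydrogenase, which is also complex II of the respiratory chain. In that enzyme SDHA binds the flavin and succinate, SDHB carries the iron-sulfur clusters, and SDHC and SDHD anchor the pair in the membrane. SDHD stood at 29.2, 22.7, 16.3, 15.8 and 17.1 CPM, or 25.9 ± 4.60 CPM in wild type (SD, n = 2) and 16.4 ± 0.643 CPM in the variant (SD, n = 3). The variant libraries were close to each other and all lay below both wild-type libraries. SDHD had a log2 fold change of −0.66 (SE 0.20, 95% confidence interval −1.10 to −0.22; edgeR adjusted p = 0.616), the lowest of the 40 genes. Without wild-type 1 it was −0.47.

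SDHB stood at 133, 124, 86.4, 87.6 and 105 CPM, or 128 ± 6.50 CPM in wild type (SD, n = 2) and 93.1 ± 10.5 CPM in the variant (SD, n = 3). Variant 3 was nearest to wild type but still below it. SDHB had a log2 fold change of −0.46 (SE 0.16, 95% confidence interval −0.81 to −0.11; edgeR adjusted p = 0.616). It was −0.41 without wild-type 1. At the other subunits the groups overlapped. SDHA stood at 31.8, 47.6, 40.5, 40.4 and 49.4 CPM, with wild-type 1 the lowest and variant 3 the highest library, and a log2 fold change of 0.13 (95% confidence interval −0.35 to 0.60). It was −0.13 without wild-type 1. SDHC stood at 85.0, 89.0, 82.2, 71.2 and 90.3 CPM, with a log2 fold change of −0.10 (95% confidence interval −0.46 to 0.27). The difference between subunits was not tested.

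Sites near the starts of SDHB and SDHD are shown because these 2 genes had the lowest log2 fold changes among the subunits. They also hold letters that nuclear genes of the respiratory chain often hold. The stretch of SDHB, before the gene as annotated, is at chr1:17054171-17054282 on the reverse strand of GRCh38.p14. For SDHD, whose start lies against that of TIMM8B on the other strand, only 30 bases around each match are given, at chr11:112086750-112086779 and chr11:112086785-112086814 on the forward strand. The first of these runs across the GENCODE start of SDHD and the other lies just inside the gene, both before the start that the RefSeq table uses. Capitals mark TGCGCA (the core of the NRF1 site), CCGGAAG (the ETS site), AAGGTCA (the site of estrogen-related receptors) and GGGCGG, on either strand.
SDHB: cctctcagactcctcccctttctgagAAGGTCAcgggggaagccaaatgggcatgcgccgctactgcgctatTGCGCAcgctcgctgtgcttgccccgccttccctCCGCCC
SDHD, NRF1 core: gacagctgtgttTGCGCAtgcgcgacgggt
SDHD, ETS site: ccgcctctcgaCTTCCGGttcacccagcat
The 250 bases before the RefSeq starts of SDHB and SDHD, which for both genes reach past the GENCODE start into the gene, each held both the NRF1 core, which is its own reverse complement, and the ETS site, which for both genes lies inside the gene as GENCODE places it and for SDHB is not in the stretch shown. The NRF1 core was in 16.3% of the 49 windows and in 6.89% of all windows, the ETS site in 16.3% and 8.52%, and the site of estrogen-related receptors in 4.08% and 3.44%. IDH3B and IDH3G, with positive log2 fold changes, also held both the NRF1 core and the ETS site, and SDHA held the NRF1 core. TIMM8B, which overlaps SDHD by 26 bases of the annotation, had a log2 fold change of −0.35 (SE 0.17) and 898 counts per library on average, against 352 for SDHD.

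**Figure D3:**
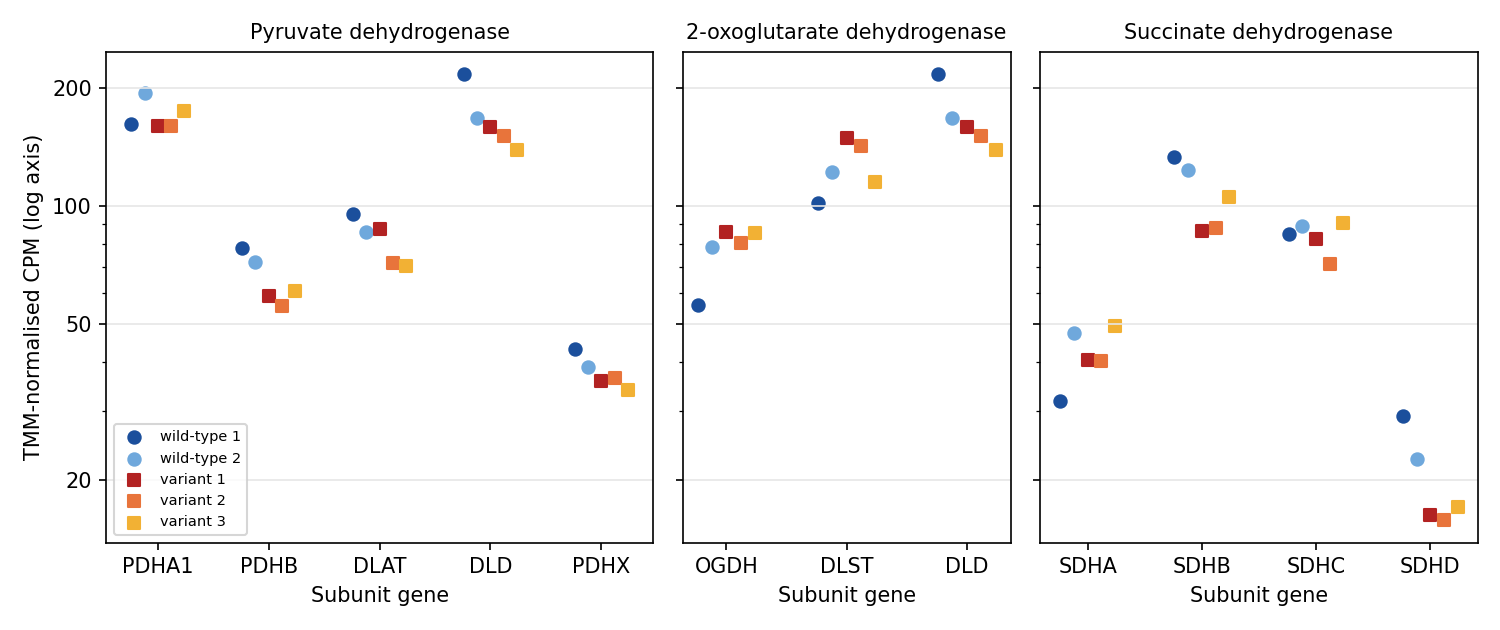
Each point is the TMM-normalised CPM of 1 library, on a log axis, for the subunit genes of pyruvate dehydrogenase, 2-oxoglutarate dehydrogenase and succinate dehydrogenase. Circles are the 2 wild-type and squares the 3 variant libraries. The squares lie below both circles at PDHB, DLD, PDHX, SDHB and SDHD and above both at OGDH.

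SDHAF1 and SDHAF2 encode assembly factors that help load the iron-sulfur and flavin groups of succinate dehydrogenase. Their libraries overlapped, at 53.7 to 74.1 CPM and 6.47 to 9.54 CPM, and in both genes variant 3 was the highest library. Their log2 fold changes were −0.08 (SE 0.19) and −0.15 (SE 0.27). FH encodes fumarase and stood at 50.6, 56.6, 44.2, 51.0 and 44.4 CPM, with variant 2 just above wild-type 1 and a log2 fold change of −0.20 (SE 0.16). MDH2, the mitochondrial malate dehydrogenase, had the highest level of the 40 genes per kilobase of transcript, at 235 CPM per kilobase. It ran from 451 to 589 CPM with a log2 fold change of −0.04 (95% confidence interval −0.39 to 0.31).

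The anaplerosis genes, which fill or drain the cycle at oxaloacetate and malate, had log2 fold changes with a median of 0.17, and 0 of 4 were at an unadjusted p under 0.05. PC encodes pyruvate carboxylase, which makes oxaloacetate from pyruvate. It stood at 21.7, 27.4, 31.5, 28.8 and 29.6 CPM. Variant libraries were higher throughout, by a small margin between wild-type 2 and variant 2, and the log2 fold change of 0.29 (SE 0.19) was 0.13 without wild-type 1. PCK2, the mitochondrial enzyme that makes phosphoenolpyruvate from oxaloacetate, stood at 26.5, 38.7, 30.9, 49.5 and 43.2 CPM. Variant 1 lay between the wild-type libraries, and the log2 fold change was 0.34 (SE 0.25), or 0.09 without wild-type 1. PCK2, like DLST, is on chromosome 14, where the 541 tested genes had a median log2 fold change of 0.31. Their median deviation was 0.275 in variant 1, 0.278 in variant 2 and −0.218 in variant 3. PCK2 was also highest in variant 2, but its lowest variant library was variant 1. The part of the chromosome-wide shift in the value of PCK2 was not tested. The malic enzymes ME1 (cytosolic) and ME2 (mitochondrial) overlapped between the groups, with log2 fold changes of −0.09 (SE 0.19) and 0.05 (SE 0.16).

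The glutamate genes and the malate-aspartate shuttle, which carries reducing equivalents from cytosol to mitochondria, were led by MDH1. This cytosolic malate dehydrogenase stood at 259.8, 239, 178, 189 and 196 CPM, or 250 ± 14.4 CPM in wild type (SD, n = 2) and 187 ± 9.01 CPM in the variant (SD, n = 3). All variant libraries were below both wild-type libraries, by more than the spread within either group. MDH1 had a log2 fold change of −0.41 (SE 0.13, 95% confidence interval −0.72 to −0.11; edgeR adjusted p = 0.616), and −0.36 without wild-type 1. GLUD1, glutamate dehydrogenase, stood at 129.96, 124, 109, 116 and 113 CPM. Its groups did not overlap, but the log2 fold change was small at −0.18 (SE 0.14).

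The transaminases that exchange aspartate and glutamate, GOT1 in the cytosol and GOT2 in mitochondria, overlapped between the groups. GOT1 ran from 82.7 to 120 CPM, with both ends in wild type, and had a log2 fold change of −0.10 (SE 0.19). That value was 0.20 without wild-type 2. GOT2 ran from 321 to 384 CPM with 0.05 (SE 0.14). Copies limit some of these values. GENCODE release 29 names 5 pseudogenes after GLUD1, 4 after GOT2, 4 after SDHC, 3 each after SDHA, SDHD and SUCLA2, and 2 after SUCLG2, and reads of 50 bases can be shared with them. Since the strand setting of the counting is not given, reads of overlapping genes on opposite strands cannot be told apart either. DLD overlaps LAMB1 (log2 fold change 0.26, SE 0.23) by 7932 bases, and MPC2 overlaps DCAF6 (−0.10, SE 0.16) by 1258 bases. MDH1 overlaps WDPCP, which held 95.2 counts per library on average against 3696 for MDH1.

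Ratios between related genes were taken within each library, so that library size cancels. They are descriptions of 7 pairs, with no test. The log2 ratio of IDH1 to IDH2 was 1.11, 0.81, 0.47, 0.23 and 0.02. No variant library reached the wild-type range, and the group means were 0.96 in wild type and 0.24 in the variant. The log2 ratio of PDK1 to PDK2 was 0.49, −0.33, −0.74, −0.60 and −1.08, and that of PDK1 to PDK3 was −0.66, −1.04, −1.20, −1.37 and −1.31. In both, all variant libraries were below both wild-type libraries.

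The log2 ratio of MDH1 to MDH2 was −0.85, −1.30, −1.34, −1.54 and −1.47, and wild-type 2 and variant 1 differed by little. GOT1 to GOT2, ME1 to ME2 and SUCLG2 to SUCLA2 overlapped between the groups, with differences of −0.13, −0.16 and −0.19 between the group means. With GC content and length corrected for, the difference in IDH1 to IDH2 was −0.54, in PDK1 to PDK2 −0.62 and in PDK1 to PDK3 −0.43, still with no overlap. In MDH1 to MDH2 it was −0.24, and the groups then overlapped. Leaving out wild-type 1 took the uncorrected difference in PDK1 to PDK2 from −0.89 to −0.48, in PDK1 to PDK3 from −0.44 to −0.25 and in MDH1 to MDH2 from −0.38 to −0.15. These are ratios of counts and not of molecules, as transcript lengths differ.

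**Figure D4:**
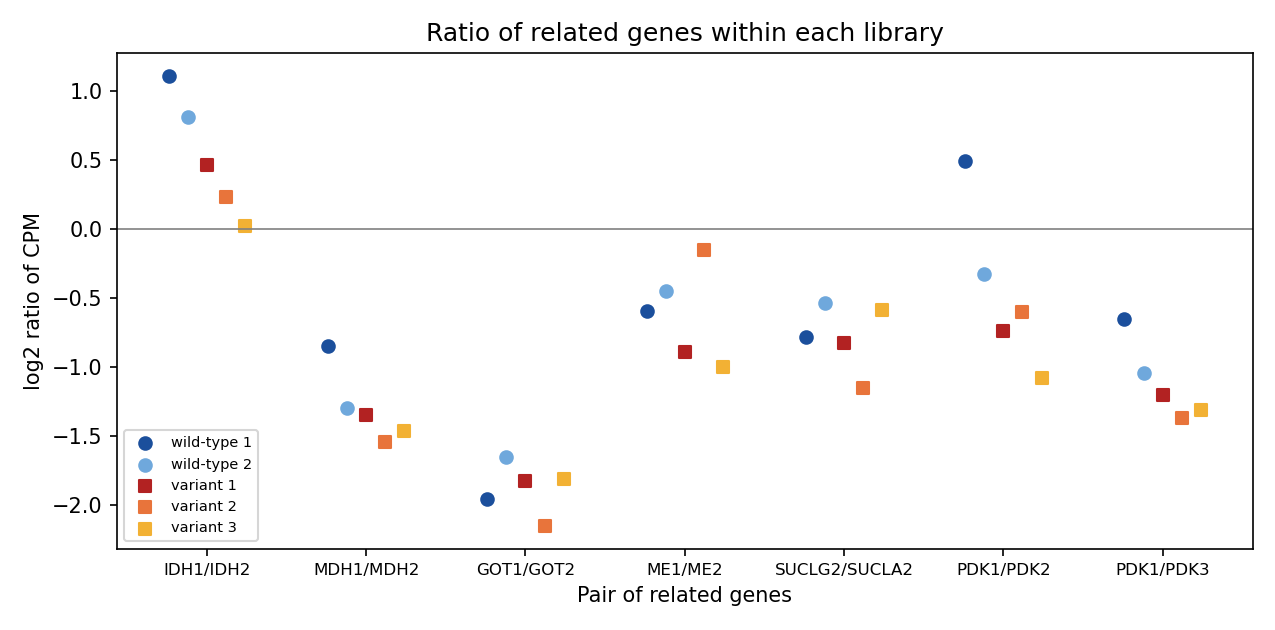
Each point is the log2 ratio of the CPM of 2 related genes within 1 library, for 7 pairs, with circles for wild type and squares for the variant. The squares lie below both circles for IDH1/IDH2, MDH1/MDH2, PDK1/PDK2 and PDK1/PDK3, and the groups overlap for the other 3 pairs.

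The direction of the 40 genes went with the GC content of their transcripts. The 11 genes with lower, non-overlapping variant libraries had a GC content of 39.3% to 48.6%, and the 4 with higher ones (OGDH, IDH2, PDK2 and PC) had 55.9% to 61.1%. Over the 40 genes, GC content and log2 fold change had a Spearman correlation of 0.585, a description over genes that share the same 5 libraries. Over the 16199 tested genes with a known GC content it was 0.340, and over the 10854 with a mean log2 CPM above 3 it was 0.407. Single libraries differed in this respect too. When each library was set against the average of all 5 over 10854 genes of higher level (mean log2 CPM above 3), its deviation correlated with GC content at −0.537 for wild-type 1, 0.0710 for wild-type 2, −0.129 for variant 1, 0.247 for variant 2 and 0.476 for variant 3. Wild-type 1 and variant 3 thus stood at opposite ends. Transcript length went with the log2 fold change too, with a Spearman correlation of 0.413 over the 40 genes and 0.136 over the 16199. Over the same 10854 genes the library deviations correlated with length at 0.0264, −0.278, 0.381, 0.107 and −0.286, in the usual order. The correction described below takes GC content and length together. Their separate parts in the values of single genes were not tested.

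Genes of like GC content were taken from tested genes with a mean log2 CPM above 3. Among 713 such genes within 1 percentage point of the GC content of SDHB the median log2 fold change was 0.01, against −0.46 for SDHB. For MDH1 the median was −0.04 over 811 genes, and for SDHD −0.10 over 946 genes, against −0.41 and −0.66. For DLD, with the lowest GC content of the 40 genes, it was −0.14 over 859 genes, against −0.36. For OGDH, IDH2, PDK2 and PC the medians ran from 0.07 to 0.11, against 0.28 to 0.32.

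After the correction the median log2 fold change of the 40 genes was −0.08, with 24 lower and 16 higher. SDHD, SDHB and MDH1 had corrected log2 fold changes of −0.42, −0.34 and −0.30, each with an unadjusted p under 0.05, and PDK1, MPC2, PDHB and DLD had −0.47, −0.32, −0.21 and −0.20, none with one. The groups did not overlap at 11 genes that were lower (against 11.6% of all tested genes) and at 2 that were higher, PDK2 and IDH3A (against 11.3%). Of the 11 lower genes before the correction, 9 were among the 11 after it. OGDH, IDH2 and PC overlapped after it, with 0.19, 0.20 and 0.13. PDPR turned to −0.15, ME1 to 0.07 and MPC1 to 0.14.

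**Figure D5:**
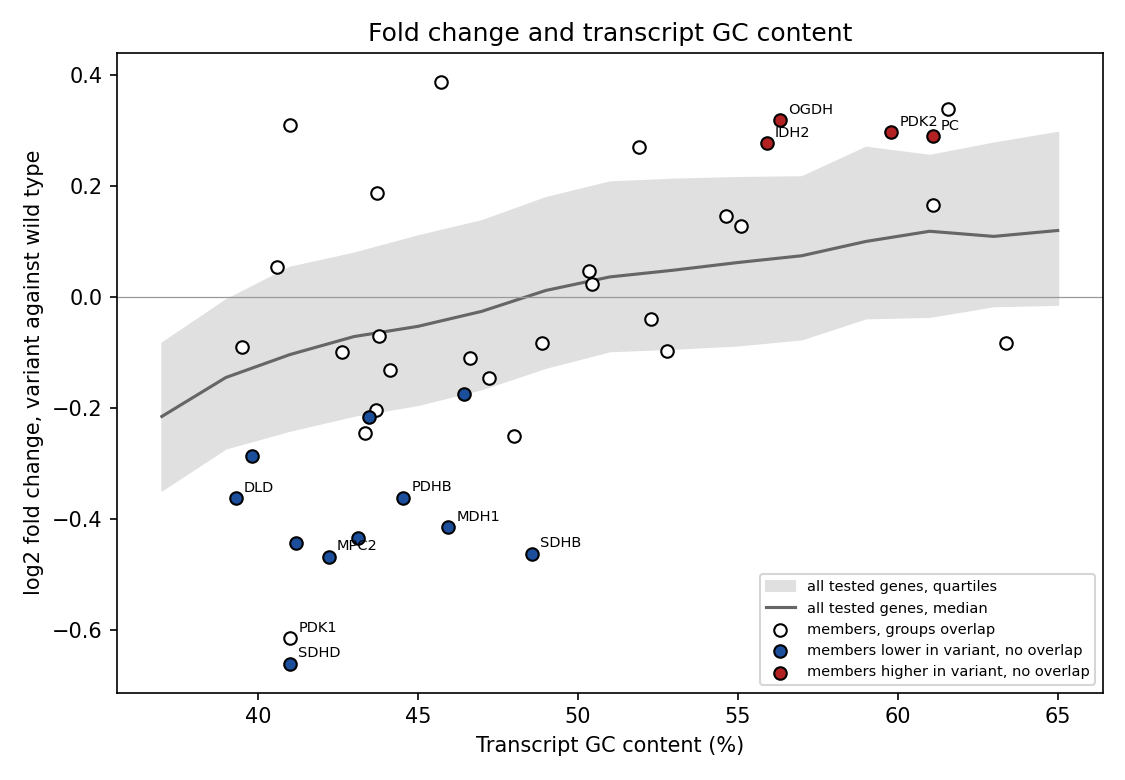
The log2 fold change of the 40 genes is plotted against the GC content of the transcript. The grey line and band give the median and quartiles of tested genes whose mean log2 CPM exceeded 3, in steps of 2 percentage points, filled points are genes whose groups do not overlap, and names are printed for genes with an unadjusted p under 0.05 or higher, non-overlapping groups. The band itself slopes upward, the 7 named lower genes lie below its lower edge, and the 4 named higher genes lie above its upper edge.

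Other genes of these pathways were read from a list of 30, also chosen with earlier results of these data known. Of these, 26 were in the table and tested. In edgeR 0 of 26 passed the adjusted threshold, and 4 had an unadjusted p under 0.05, all lower in the variant (15.4%, against the 3.51% of all tested genes). None of these 4 had one without wild-type 1, and only LDHA and LDHB had one with GC content and length corrected for. Their median log2 fold change was −0.05, with 15 lower and 11 higher. LDHA and LDHB encode the subunits of lactate dehydrogenase, which takes pyruvate to lactate. LDHA stood at 694, 628, 501, 544 and 462 CPM, with a log2 fold change of −0.40 (SE 0.13). LDHB stood at 161, 140.16, 78.0, 93.0 and 127 CPM, with −0.60 (SE 0.21). In both genes all variant libraries were below both wild-type ones.

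The other 2 were MRPS36, which encodes a subunit that ties E3 into the 2-oxoglutarate dehydrogenase complex, and LIPT1, which transfers the lipoyl group to E2 components. MRPS36 stood at 31.9, 22.1, 18.0, 16.1 and 17.9 CPM, with a log2 fold change of −0.64 (SE 0.21). Corrected for GC content, which is 34.99% in MRPS36, and length, it was −0.18, and uncorrected but without wild-type 1 it was −0.35. LIPT1 stood at 7.17, 5.07, 4.04, 3.33 and 3.11 CPM, with −0.81 (SE 0.29), −0.57 after the correction and −0.54 without wild-type 1. LDHA and LDHB had −0.30 and −0.49 after it. All 4 genes had an edgeR adjusted p of 0.616.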

How the data were processed

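The table holds raw counts per gene, deposited by the authors with no normalization. Per the submitters' processing notes HISAT2, SAMtools and HTSeq were used with hg38. Versions, annotation and strand setting are not given in the sources used here. Reads were single-end of 50 bases from a strand-specific mRNA kit, per the labels' protocols. Columns were matched by library name, and 16627 of 16677 identifiers were named from a gene name table and 46 from GENCODE release 29, which also gave positions, GC content and length (longest RefSeq-matched transcript, 13566 bases for SDHC, so its level per length is uncertain).

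Counts were filtered with filterByExpr, scaled by TMM and tested with edgeR 4.0.16 (quasi-likelihood F test, robust, R 4.3.3) over 16310 genes in all 5 libraries, with no covariate other than group and Benjamini-Hochberg adjustment (threshold 0.05, two-sided). Confidence intervals are 95%. Alternatives were RLE and upper-quartile scaling, no filter, at least 10 counts in every library, DESeq2 1.42.0, limma-voom (limma 3.58.1), the replicate number as a block, each library left out, and offsets per library from splines (5 degrees of freedom) on GC content and log2 length. Every library pair differed beyond sampling noise (chi-square per degree of freedom 17.3 to 38.9). The fit was first tested on simulated data.

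The 40 genes, the 26 pathway genes and the roles were chosen with earlier results of these data known. Every gene of the 40 is reported. Those with non-overlapping groups or an unadjusted p under 0.05 are given by library, the highest per transcript length and the most spread in each role are named too, and pathway genes outside them are named at an unadjusted p under 0.05.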

Additional observations from a re-analysis of the deposited data

How the results depend on the processing

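No alternative brought any of the 40 genes, or of the 26 other pathway genes, past an adjusted p of 0.05. Of 520 values of single genes under the alternatives, 496 kept their direction. The values that turned lay in 13 of the 40 genes. With 1 library left out 18 turned, and 6 turned under the replicate block or the GC content and length correction. Changes of scaling, filter or test refitted the same 5 libraries and turned none, so their values add little to the 496. The number of the 40 at an unadjusted p under 0.05, 7 in the edgeR fit, was 3 when GC content and length were corrected for (all 3 lower) and between 0 and 8 when 1 library was left out, with 0 to 7 lower ones. Leaving out wild-type 1 gave 0, and leaving out variant 2 gave 4. Shares over all tested genes were not computed for the fits without wild-type 2 or without a variant library. The cause was not tested. The median log2 fold change ran from −0.132 with wild-type 1 left out to −0.0622 with wild-type 2 left out. With 5 libraries, standard errors of the 40 genes ran from 0.134 to 0.267 on the log2 scale, which limits what differences could be seen.

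With the replicate block the count was 7, of which 6 were lower, where 4.10% of all tested genes were lower at that p. The labels give replicate numbers but no shared origin. The deviations of same-numbered libraries from their group means correlated at 0.154 for number 1 and −0.209 for number 2. With 2 wild-type libraries these deviations mirror each other, so the correlations cannot tell if same-numbered libraries share an origin. Under the block ME2 had a log2 fold change of −0.0020, PDK3 of 0.0018 and MPC1 of 0.0822. The correction for GC content and length gave ME1 0.0695, PDPR −0.155 and MPC1 0.139. When 1 library was left out, 18 values turned, in genes with leave-one-out ranges of −0.0475 to 0.37 for IDH3B, −0.104 to 0.414 for IDH3G, −0.132 to 0.448 for SDHA, −0.319 to 0.0371 for PDK3, −0.0642 to 0.168 for GOT2, −0.31 to 0.208 for MPC1, −0.23 to 0.0593 for SDHAF1, −0.198 to 0.137 for MDH2, −0.0366 to 0.154 for ME2, −0.239 to 0.0312 for PDHA1, −0.343 to 0.199 for GOT1, −0.126 to 0.102 for PDPR and −0.267 to 0.0128 for ME1.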
